A study of Homo sapiens with 4 samples.

Results

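The genes described here encode the human aldo-keto reductases of the AKR1B and AKR1C subfamilies: AKR1C1, AKR1C2, AKR1C3, AKR1B1 and AKR1B10. Their members were all Affymetrix probe sets that the platform's annotation pairs with any of the 5 symbols, alone or together. These were 11 probe sets, of 54613 on the array that are not array controls, and they cover 4 of the 5 genes. No probe set was paired with AKR1B1 in the annotation used here, and AKR1B1 is not analysed here. AKR1C1 alone was read by 5 probe sets, AKR1C2 alone by 3, AKR1C3 by 1 and AKR1B10 by 1, and 1 further probe set was paired with both AKR1C2 and AKR1C1. The genes were chosen by their intensities after siTTF-1 and siNTC in each line and by their level in each line, which were already known, so their values are given as a description, with no test.

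Transcripts were measured in Lu139 and NCI-H209, established lines of small cell lung cancer, a neuroendocrine tumour, kept in their standard growth conditions. The groups were Lu139 siTTF-1 and Lu139 siNTC, and NCI-H209 siTTF-1 and NCI-H209 siNTC. The siTTF-1 cells received siRNA targeting TTF-1, a transcription factor of lung and thyroid that NKX2-1 encodes, and the siNTC cells received control siRNA. All 4 groups went through electroporation, no group was left untreated, and the time between electroporation and harvest is not given in the labels. Each of the 4 groups had 1 array, so only the agreement between Lu139 and NCI-H209 speaks to the error of an siRNA difference. These are bulk samples, in which fewer cells carrying a transcript and less of it per cell cannot be told apart.

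Aldo-keto reductases are soluble enzymes that use NADPH to reduce aldehydes and ketones to alcohols. The AKR1C enzymes act on steroids, prostaglandins and reactive lipid aldehydes, and AKR1C3 also makes active androgens and prostaglandin F. AKR1B1, or aldose reductase, opens the polyol pathway from glucose, and AKR1B10 reduces retinal and other aldehydes. In lung cancers AKR1C genes and AKR1B10 are known as targets of NRF2, the transcription factor of the oxidative stress response that KEAP1 holds in check.

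The AKR1C genes are near copies of each other, which bears on what each probe set reads. The 250 bases upstream of the annotated starts are shown because they make this likeness visible for the 3 genes that were detected. They are given 5′ to 3′ on the gene's strand, from RefSeq on GRCh38.p14, and the capitals mark a reversed CCAAT box.
AKR1C1, chr10:4963165-4963414, plus strand: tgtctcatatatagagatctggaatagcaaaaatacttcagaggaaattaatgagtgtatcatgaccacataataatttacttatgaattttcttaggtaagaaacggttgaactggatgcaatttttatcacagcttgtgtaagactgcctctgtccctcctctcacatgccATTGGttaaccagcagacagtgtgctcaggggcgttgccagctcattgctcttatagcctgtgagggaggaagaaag
AKR1C2, chr10:5003858-5004107, minus strand: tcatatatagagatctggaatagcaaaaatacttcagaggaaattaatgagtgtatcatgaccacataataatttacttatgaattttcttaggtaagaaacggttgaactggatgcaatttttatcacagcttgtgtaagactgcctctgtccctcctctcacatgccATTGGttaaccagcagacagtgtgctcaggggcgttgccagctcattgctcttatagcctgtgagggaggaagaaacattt
AKR1C3 at its first listed start, chr10:5048531-5048780, plus strand: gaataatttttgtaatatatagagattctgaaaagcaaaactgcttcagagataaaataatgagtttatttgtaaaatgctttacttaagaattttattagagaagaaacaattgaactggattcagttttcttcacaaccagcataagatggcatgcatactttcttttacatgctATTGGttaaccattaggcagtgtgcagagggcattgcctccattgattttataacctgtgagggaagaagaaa
AKR1C3 at its second listed start, chr10:5094164-5094413, plus strand: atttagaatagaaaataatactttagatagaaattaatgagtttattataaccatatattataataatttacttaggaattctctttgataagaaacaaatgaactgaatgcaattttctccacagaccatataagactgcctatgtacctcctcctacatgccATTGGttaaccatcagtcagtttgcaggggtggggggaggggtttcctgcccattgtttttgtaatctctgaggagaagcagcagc
The AKR1C1 and AKR1C2 windows were identical at 245 of 246 aligned bases (99.6%). Between AKR1C1 and the AKR1C3 windows, identity was 79.1% and 80.6%. The longest run that all 4 windows share is attggttaacca, 12 bases long, which was present in 5 of 35116 windows of the same length over all genes, those of AKR1C1, AKR1C2, AKR1C3 and PPFIA2.

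Both strands of the windows were searched for 6 motifs. The CCAAT box (CCAAT) was present in each of the 4 windows and in 32.0% of windows over all genes, and the letters GTTAAC, which overlap it here by 1 base, were present in each of the 4 and in 2.31% of all windows. A TATA box (TATAAA) was matched in the first AKR1C3 window alone, and in 10.7% of all windows. The letters TGACNNNGC, the core of the antioxidant response element that NRF2 binds, had 0 matches in these windows and matches in 10.9% of all windows. CTCAAG, taken as the NKX2-1 core, had 0 matches here and matches in 10.4% of all windows, and the AP-1 letters TGANTCA had 0 here and matches in 6.57%. A match is a description of the letters in these windows and no more.

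The targeted transcript, NKX2-1, was lower in each line treated with siTTF-1. On probe set 211024_s_at the NKX2-1 intensity was 461 in Lu139 siTTF-1 cells and 779.9 in Lu139 siNTC cells, 59.1% of control. On the same probe set it was 243 in NCI-H209 siTTF-1 cells and 596 in NCI-H209 siNTC cells, 40.7% of control. A second NKX2-1 probe set gave 55.3% and 64.6% of control in Lu139 and NCI-H209. Of the 9 neuroendocrine marker genes set as a check of the labelled cancer type, 7 had a value and all 7 were above the expression limit in both lines, while POU2F3 and YAP1, markers of other forms of this cancer, were below it. Of 8 markers of other cell types, 5 were above the limit in each line, with summed intensities of 1051 and 936 in Lu139 siTTF-1 and siNTC cells and 991 and 922 in NCI-H209 siTTF-1 and siNTC cells. Those above it were PECAM1 of endothelium, COL1A1 and DCN of fibroblasts, and SFTPC and SFTPB of alveolar epithelium, and their part in the results was not tested. DCN had 56.99 and 33.4 in Lu139 siTTF-1 and siNTC cells, and 75.0 and 71.8 in NCI-H209 siTTF-1 and siNTC cells. PTPRC of leukocytes, COL1A2 of fibroblasts and ALB of hepatocytes were below it. The expression limit is an intensity of 37.0. Fold changes below give siTTF-1 over siNTC, with 18.7 added to each intensity before log2, which understates the change of dim probe sets.

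AKR1C3, which reduces androgen precursors and prostaglandins, was read by a probe set paired with that gene alone, 209160_at. Its intensity was 343 in Lu139 siTTF-1 cells and 192 in Lu139 siNTC cells, and 4837 in NCI-H209 siTTF-1 cells and 3266 in NCI-H209 siNTC cells. It was higher after siTTF-1 in both lines and higher on both NCI-H209 arrays than on either Lu139 array. The log2 fold change was 0.78 in Lu139 and 0.56 in NCI-H209, with a mean of 0.67 (SD 0.15, n = 2 lines).

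AKR1C1, which inactivates progesterone by reducing its side chain, was read most brightly by 204151_x_at. The intensity was 1492 in Lu139 siTTF-1 cells and 792 in Lu139 siNTC cells, and 14109.6 in NCI-H209 siTTF-1 cells and 10798 in NCI-H209 siNTC cells. The log2 fold change was 0.90 in Lu139 and 0.39 in NCI-H209 (mean 0.64, SD 0.36, n = 2 lines). The second bright AKR1C1 probe set, 216594_x_at, had 1157 and 639.6 in Lu139 siTTF-1 and siNTC cells and 11823 and 8405 in NCI-H209 siTTF-1 and siNTC cells. Its log2 fold changes were 0.84 in Lu139 and 0.49 in NCI-H209. Both probe sets were higher after siTTF-1 in each line, by more in Lu139 than in NCI-H209.

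AKR1C2, which reduces dihydrotestosterone to a weaker androgen and binds bile acids, was read most brightly by 209699_x_at. The intensity was 1232 in Lu139 siTTF-1 cells and 624 in Lu139 siNTC cells, and 11346 in NCI-H209 siTTF-1 cells and 8707 in NCI-H209 siNTC cells. The log2 fold change was 0.96 in Lu139 and 0.38 in NCI-H209 (mean 0.67, SD 0.41, n = 2 lines). On the other bright AKR1C2 probe set, 211653_x_at, it was 1.15 in Lu139, where the intensity was 848 after siTTF-1 and 372 with siNTC. In NCI-H209 the same probe set had 11099.9 after siTTF-1 and 7513 with siNTC, a log2 fold change of 0.56. The names of these 4 bright AKR1C1 and AKR1C2 probe sets end in _x_at, the array maker's mark for probes that can match several transcripts, so their values are not independent readings of separate genes. Over the 4, the log2 fold change ran from 0.84 to 1.15 in Lu139 and from 0.38 to 0.56 in NCI-H209. In NCI-H209 these 4 lay between percentiles 99.1 and 99.7 of level among all probe sets. Whether the signal stays proportional to the transcript at that level was not tested. The dimmer probe sets of these genes were mixed. Higher in NCI-H209 were 1555854_at, at 0.85 in Lu139 and 1.24 in NCI-H209, and 217626_at, at 0.33 and 0.57. The intensity ratio of 1555854_at was instead higher in Lu139, at 2.64 against 2.47. Near background, 1555856_s_at (0.16 in Lu139 and 0.15 in NCI-H209), 1555855_at (0.10 and 0.06) and 244266_at (0.02 and -0.10) were higher in Lu139. Whether the lines differ in their response was not tested, since each line has 1 array per siRNA.

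**Figure D1:**
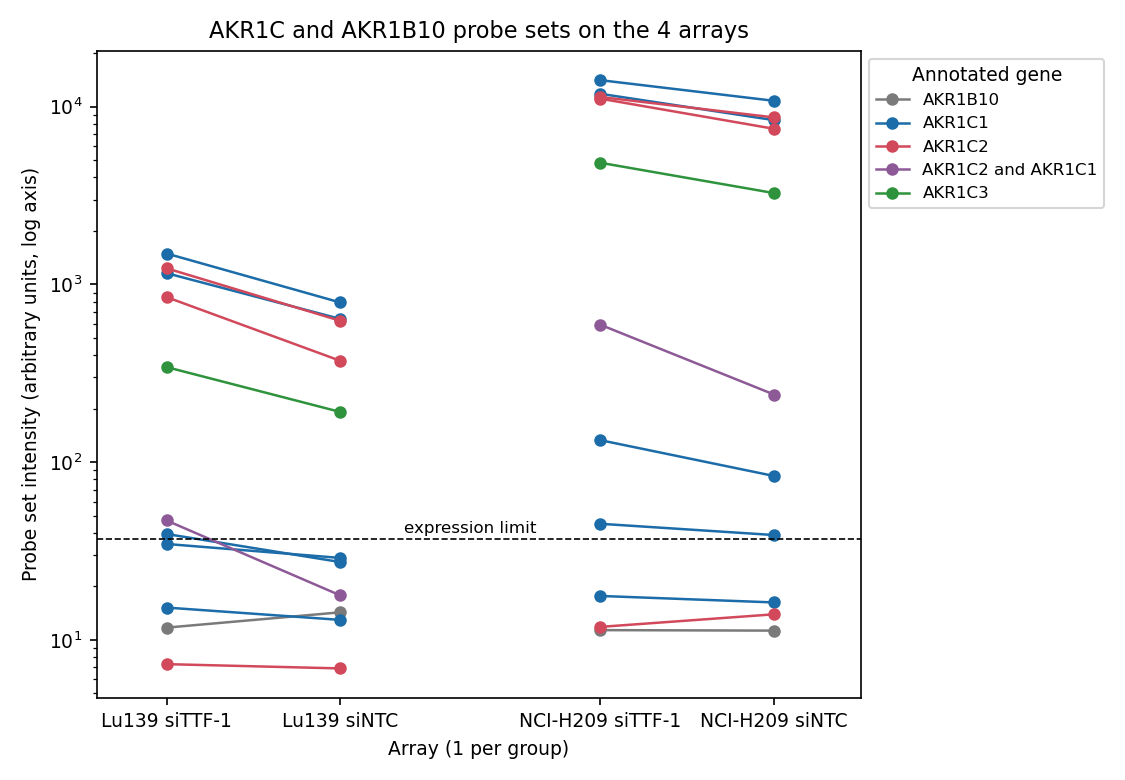
Intensity (log axis) of the 11 AKR1C and AKR1B10 probe sets on the 4 arrays, 1 array per group; each point is 1 probe set on 1 array, lines join the siTTF-1 and siNTC arrays of a cell line, and the dashed line is the expression limit of 37.0. The bright AKR1C1, AKR1C2 and AKR1C3 probe sets are higher after siTTF-1 in each line and higher in NCI-H209 than in Lu139.

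The probe set paired with both AKR1C2 and AKR1C1, 1555854_at, had the greatest intensity ratio of the 11 in each line. Its intensity was 46.9 in Lu139 siTTF-1 cells and 17.8 in Lu139 siNTC cells, a ratio of 2.64 but a log2 fold change of 0.85, lower than on 204151_x_at, 209699_x_at and 211653_x_at. In NCI-H209 it was 593 after siTTF-1 and 240.1 with siNTC, a ratio of 2.47 and a log2 fold change of 1.24. In Lu139 its mean over both arrays was below the expression limit, so the ratio there rests on dim values. A dim probe set of AKR1C1, 217626_at, had 39.4 and 27.4 in Lu139 siTTF-1 and siNTC cells and 133 and 83.6 in NCI-H209 siTTF-1 and siNTC cells. It was also higher after siTTF-1 in each line, and reached 0.57 on the log2 scale in NCI-H209, but was below the limit in Lu139.

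The remaining members were near background. The AKR1C1 probe set 1555856_s_at had 34.6 and 28.9 in Lu139 siTTF-1 and siNTC cells and 44.97 and 38.9 in NCI-H209 siTTF-1 and siNTC cells, and 1555855_at lay between 12.9 and 17.7 on the 4 arrays. The AKR1C2 probe set 244266_at lay between 6.90 and 13.9. AKR1B10 had 11.7 and 14.3 in Lu139 siTTF-1 and siNTC cells and 11.3 and 11.3 in NCI-H209 siTTF-1 and siNTC cells, below the expression limit on each array. No change of AKR1B10 could be read at that intensity.

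Taking all 11 probe sets, 5 were above the expression limit in Lu139 and 8 in NCI-H209, and 3 were below it in both lines. In Lu139, 5 of the 5 above the limit were at least 1.5-fold higher after siTTF-1, beside 0.16% of all 31324 probe sets above the limit there, and 1 was at least 2-fold higher, beside 0.00638%. In NCI-H209, 1 of the 8 was at least 1.5-fold higher, beside 1.12% of all 33209 probe sets, and the same 1 was at least 2-fold higher, beside 0.148%. In both lines at once, 0 of the 5 above the limit were at least 1.5-fold higher, beside 0.0483% of 29008 probe sets, and 5 of the 5 were higher by any amount, beside 35.5%. Of these 5, 4 are the bright _x_at probe sets, which are not independent readings. The choice of genes used this contrast, so nothing is read from these shares. The count in NCI-H209 depends on the scaling, since 3 more probe sets lay just under 1.5-fold: with each array centred on its median it was 4. Averaged over its probe sets, AKR1C1 had log2 fold changes of 0.53 in Lu139 and 0.48 in NCI-H209, in place of 0.90 and 0.39. That average includes dim probe sets and the one shared with AKR1C2. AKR1C2, so averaged, had 0.74 in Lu139 and 0.52 in NCI-H209, in place of 0.96 and 0.38.

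The level of the AKR1C genes differed between the lines by more than it did between siRNAs. In Lu139 cells treated with siTTF-1, AKR1C3 had 7.08% of its intensity in NCI-H209 siTTF-1 cells, and with siNTC it had 5.87% of its intensity in NCI-H209 siNTC cells. AKR1C1 on 204151_x_at had 10.6% with siTTF-1 and 7.33% with siNTC in Lu139, both relative to NCI-H209. AKR1C2 on 209699_x_at had 10.9% and 7.17% on the same footing. The log2 difference, Lu139 minus NCI-H209, was -3.75 with siTTF-1 and -3.97 with siNTC for AKR1C3, -3.22 and -3.74 for AKR1C1, and -3.18 and -3.76 for AKR1C2. AKR1B10 had 103% and 127% of the NCI-H209 intensity, all near background.

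For a frame, 19.8% of the 14547 genes tested were at least 2-fold lower in Lu139 than in NCI-H209 with siTTF-1, and 20.7% with siNTC. At least 2-fold higher in Lu139 were 5.73% and 5.37%. The deposited values may have been normalized separately for each line, since the Lu139 arrays held the identical intensity for 2206 probe sets and the NCI-H209 arrays for 2416, against 0 between lines. The size of a difference between lines therefore depends on the scaling, and with quantile normalization over the 4 arrays that of AKR1C3 was -3.27 with siTTF-1 and -3.55 with siNTC. As the mean of its probe sets, the one shared with AKR1C2 included, AKR1C1 had -1.92 and -1.97. The dim probe sets paired with AKR1C1 alone differ less between the lines than its bright ones.

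Ranked by intensity, 9 of the 10 AKR1C probe sets had the same order of the 4 arrays. NCI-H209 siTTF-1 was highest, then NCI-H209 siNTC, Lu139 siTTF-1 and Lu139 siNTC, and the exception was the AKR1C2 probe set 244266_at near background. The 10 include probe sets below the limit, and no share over all probe sets was counted for them. Of the 5 AKR1C probe sets above the limit in both lines, 4 are the _x_at probe sets, which are not independent readings. All 5 had that order, beside 19.4% of all 29008 probe sets above the limit in both lines. The genes were chosen by these values, so nothing is read from that share. With 1 array per group no spread is known for any step of the order.

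The genes whose values over the 4 arrays, each centred on its own mean, lay nearest to AKR1C3 among 13303 genes above the limit in both lines were TMEM176A (Euclidean distance 0.38 on the log2 scale), MS4A8 (0.42), NEFH (0.45), STOM (0.46) and MB (0.50). AKR1C1 lay at 0.40 and AKR1C2 at 0.42 from AKR1C3, and AKR1B10 at 4.01. Nearest to AKR1C1 were AKR1C2 at 0.04, AKR1C3 at 0.40 and, outside the family, EYA2 (0.34), MS4A8 (0.39), HIPK3 (0.44), ELF3 (0.51) and MALL (0.51). The distance is dominated by the difference between the lines. TMEM176A, for example, had 155 and 123 in Lu139 siTTF-1 and siNTC cells and 2440 and 1927 in NCI-H209 siTTF-1 and siNTC cells, with smaller log2 fold changes than AKR1C3, at 0.30 in Lu139 and 0.34 in NCI-H209.

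**Figure D2:**
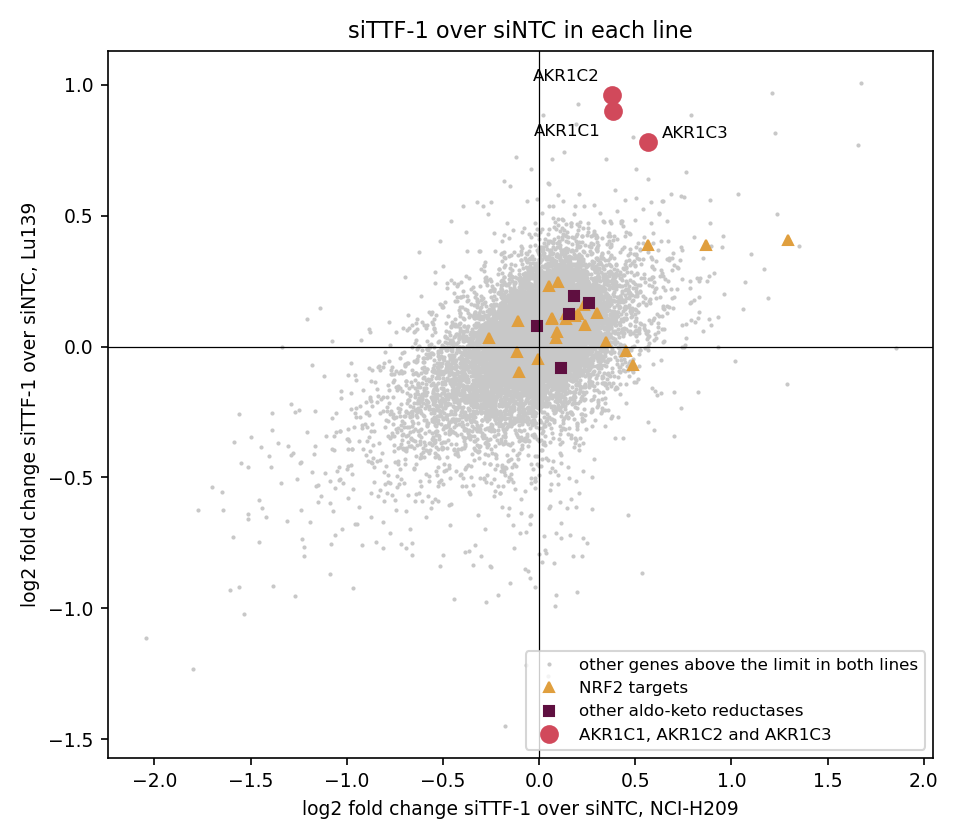
siTTF-1 over siNTC as log2 fold change, NCI-H209 on the x axis and Lu139 on the y axis; each grey point is a gene above the expression limit in both lines, triangles are the tested NRF2 targets, squares the tested other aldo-keto reductases and red points the AKR1C genes. AKR1C1 and AKR1C2 lie at 0.90 and 0.96 in Lu139 and near 0.38 in NCI-H209, and AKR1C3 lies at 0.78 and 0.56.

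The AKR1C genes sit side by side on chromosome 10, and their neighbours were taken by position, after the files had been seen. The 5 nearest protein-coding genes with a value on each side gave 10 genes, of which 7 were above the expression limit in both lines and 6 of those had higher values after siTTF-1 in both, as did 37.3% of all genes tested. With the constant added before log2, none of the 10 was at least 1.5-fold higher in a line. Of all genes above the limit, 0.193% of 13996 in Lu139 and 1.09% of 14632 in NCI-H209 were. Beside shares that small, a count of 0 does not set the neighbours apart. Without the constant, UCN3 was past 1.5-fold in Lu139, at 57.9 in siTTF-1 cells and 37.9 in siNTC cells. Of the 8 tested by limma, 0 passed at an adjusted p under 0.05. At an unadjusted p under 0.05, 3 passed, all higher, beside 7.23% of all genes higher and 9.25% lower. Those 3 were KLF6, a zinc finger transcription factor gene, at 0.33 in Lu139 and 0.49 in NCI-H209, UCN3, which encodes the peptide urocortin 3, at 0.44 and 0.25, and AKR1E2 at 0.17 and 0.26. AKR1C4, the liver member of the AKR1C group and the gene next after AKR1C3, was below the limit in both lines, at 5.19 and 4.38 in Lu139 siTTF-1 and siNTC cells and 16.3 and 13.5 in NCI-H209 siTTF-1 and siNTC cells. NET1, a guanine nucleotide exchange factor gene further on, was at -0.09 in Lu139 and 0.02 in NCI-H209.

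**Figure D3:**
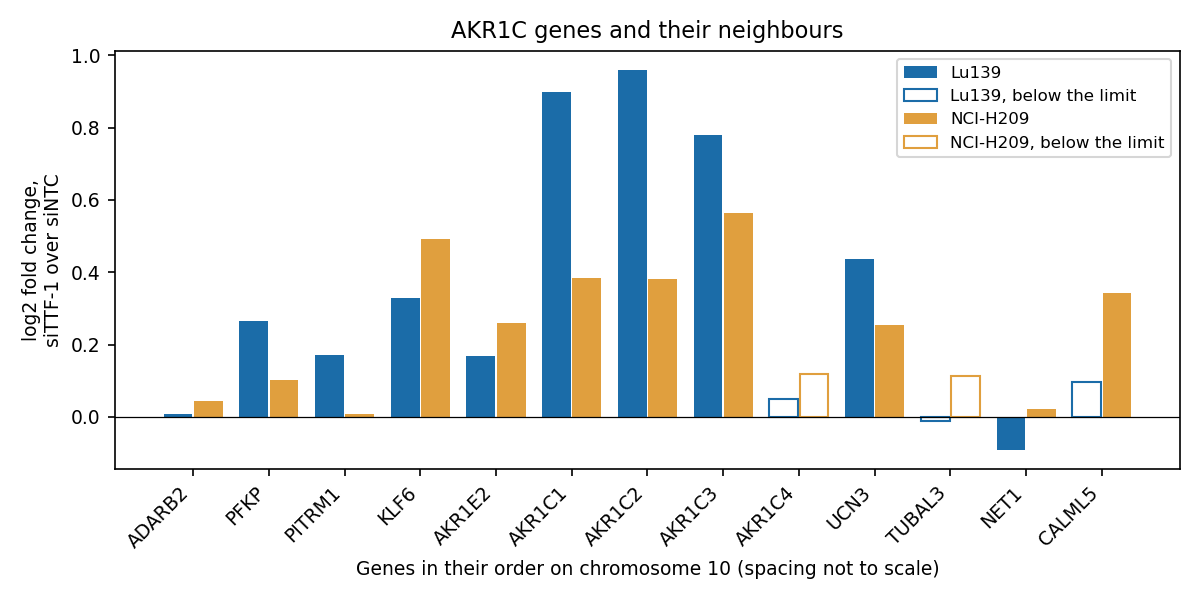
Log2 fold change of siTTF-1 over siNTC for AKR1C1, AKR1C2, AKR1C3 and the 5 nearest protein-coding genes with a value on each side, in their order on chromosome 10 with spacing not to scale; each bar is 1 siTTF-1 array against 1 siNTC array of a line, and open bars are below the expression limit. In Lu139 the AKR1C bars reach 0.78 to 0.96 and the highest neighbour, UCN3, reaches 0.44, while in NCI-H209 KLF6 (0.49) lies above AKR1C1 (0.39) and AKR1C2 (0.38).

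Of the 11 other aldo-keto reductase genes listed, 8 had a value and 5 could be tested across the lines. Limma with a term for the line called 0 of the 5 at an adjusted p under 0.05, as it called 0 of all 14547 genes in either direction (0% higher and 0% lower). That 0 depends on the scaling, since limma called 17 genes higher and 49 lower with quantile normalization over the 4 arrays, and 8 and 33 with it within each line. At an unadjusted p under 0.05 it gave 1 higher and 0 lower, beside 7.23% of all genes higher and 9.25% lower. The median log2 fold change of the 5 was 0.12 in Lu139 and 0.15 in NCI-H209, beside 0.03 and 0.01 over all genes tested. AKR1E2, the 1 gene, had 49.7 and 42.2 in Lu139 siTTF-1 and siNTC cells and 56.5 and 44.1 in NCI-H209 siTTF-1 and siNTC cells (limma adjusted p = 0.281). AKR7A2, an aflatoxin and succinic semialdehyde reductase, had log2 fold changes of 0.19 in Lu139 and 0.18 in NCI-H209, and AKR7A3 had 0.08 and -0.01. The potassium channel beta subunit genes KCNAB2 (0.12 and 0.15) and KCNAB1 (-0.08 and 0.12), which belong to the same superfamily, had small values.

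NRF2 targets other than the aldo-keto reductases had 25 tested genes, with 18 (72%) higher and 3 lower in both lines by sign, beside 37.3% of all genes higher in both. Limma called 0 at an adjusted p under 0.05. At an unadjusted p under 0.05 it gave 6 higher and 0 lower, beside 7.23% of all genes higher and 9.25% lower. The list's median log2 fold change was 0.11 in Lu139 and 0.14 in NCI-H209. The highest was HMOX1, the haem oxygenase gene, with 198 and 145 in Lu139 siTTF-1 and siNTC cells and 447 and 171 in NCI-H209 siTTF-1 and siNTC cells (limma adjusted p = 0.143). NQO1, a quinone reductase gene, had 2409 and 1835 in Lu139 siTTF-1 and siNTC cells and 2320 and 1261 in NCI-H209 siTTF-1 and siNTC cells (limma adjusted p = 0.115).

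SRXN1, which encodes sulfiredoxin, followed at 0.39 in Lu139 and 0.57 in NCI-H209. At the low end were ABCC1, a drug and glutathione conjugate exporter gene (0.03 and -0.26), GSR, the glutathione reductase gene (-0.10 and -0.10), and TKT, the transketolase gene (-0.02 and -0.11). In Lu139, 0 of these 25 were at least 1.5-fold higher there, beside 0.193% of the 13996 genes above the limit in that line. In NCI-H209, 2 of the 25 were, beside 1.09% of 14632 genes. There HMOX1 (1.29), NQO1 (0.87) and, narrowly, SRXN1 (0.57) lay above AKR1C3 (0.56). The difference between the AKR1C genes and this list was not tested.

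Of the NRF2 regulators and partners, 14 were tested, with 0 passing limma at an adjusted p under 0.05. It gave 2 higher and 0 lower at an unadjusted p under 0.05, beside 7.23% of all genes higher and 9.25% lower. NFE2L2, which encodes NRF2 itself, was at 0.18 (log2 fold change) in each line, and KEAP1, its inhibitor, had 0.12 in Lu139 and 0.13 in NCI-H209. SQSTM1, the autophagy receptor gene that is both a partner of KEAP1 and a target of NRF2, had 0.30 and 0.45 (limma adjusted p = 0.143). MAFF, a small MAF partner, had 0.10 and 0.44, and NFE2L1, a paralog of NRF2, had 0.16 and 0.31. MAFG (-0.05 and -0.28), CUL3, the ubiquitin ligase scaffold that acts with KEAP1 (-0.06 and -0.16), and NFE2L3 (0.06 and -0.18) were at the low end.

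For steroid metabolism and receptors, 16 genes were tested and 0 passed limma at an adjusted p under 0.05. It gave 4 higher and 2 lower at an unadjusted p under 0.05, beside 7.23% of all genes higher and 9.25% lower. ESR1, the oestrogen receptor alpha gene, had 0.62 in Lu139 and 0.04 in NCI-H209, and HSD11B2, which inactivates cortisol, had 0.33 and 0.27. HSD17B11, a steroid and lipid droplet dehydrogenase gene, had 0.10 and 0.50. STS, the steroid sulfatase gene, had -0.16 and -0.36, NR3C1, the glucocorticoid receptor gene, had -0.46 and -0.12, and HSD17B6 had -0.11 and -0.42. The list's medians were 0.09 in Lu139 and -0.04 in NCI-H209.

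For prostaglandin metabolism, 15 genes were tested and 0 passed limma at an adjusted p under 0.05. It gave 1 higher and 2 lower at an unadjusted p under 0.05, beside 7.23% of all genes higher and 9.25% lower. PTGES3, which encodes the HSP90 co-chaperone p23 that also has prostaglandin E synthase activity, had 7490 and 10916 in Lu139 siTTF-1 and siNTC cells and 5815 and 11398 in NCI-H209 siTTF-1 and siNTC cells, with log2 fold changes of -0.54 and -0.97 (limma adjusted p = 0.0713). PTGR2 had -0.26 and -0.21 and PTGR1 -0.07 and -0.15, both reductases of prostaglandin metabolites, although PTGR2 was at 24.0 and 32.3 and PTGR1 at 9.79 and 11.3 in Lu139 siTTF-1 and siNTC cells, under the limit of 37.0. The prostacyclin receptor gene PTGIR had 0.27 and 0.30, PTGDS 0.47 and -0.02, and TBXA2R 0.06 and 0.14.

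For retinoid metabolism, 17 genes were tested and 0 passed limma at an adjusted p under 0.05. It gave 1 higher and 0 lower at an unadjusted p under 0.05, beside 7.23% of all genes higher and 9.25% lower. The 1 higher gene was RDH12, a retinal reductase, with 0.47 in Lu139 and 0.18 in NCI-H209, and at 24.4 in Lu139 siNTC cells, under the limit. RARA, a retinoic acid receptor gene, had 0.22 and 0.20, and STRA6, the retinol uptake receptor gene, had 0.23 and 0.15. RBP4 (-0.05 and -0.20), RARB (0.08 and -0.30) and RDH10 (0.09 and -0.25) were at the low end. Of the other carbonyl and aldehyde enzymes, 27 were tested and 0 passed limma at an adjusted p under 0.05. It gave 2 higher and 1 lower at an unadjusted p under 0.05, beside the same 7.23% and 9.25% of all genes. DCXR, a carbonyl reductase of xylulose, had 0.31 in Lu139 and 0.59 in NCI-H209 (limma adjusted p = 0.14). DHRS11 had 0.21 and 0.27, ALDH3B1 0.24 and 0.14, ADH4 -0.48 and 0.06, HAGH -0.19 and -0.17, and ALDH5A1, the succinic semialdehyde dehydrogenase gene, -0.09 and -0.55.

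**Figure D4:**
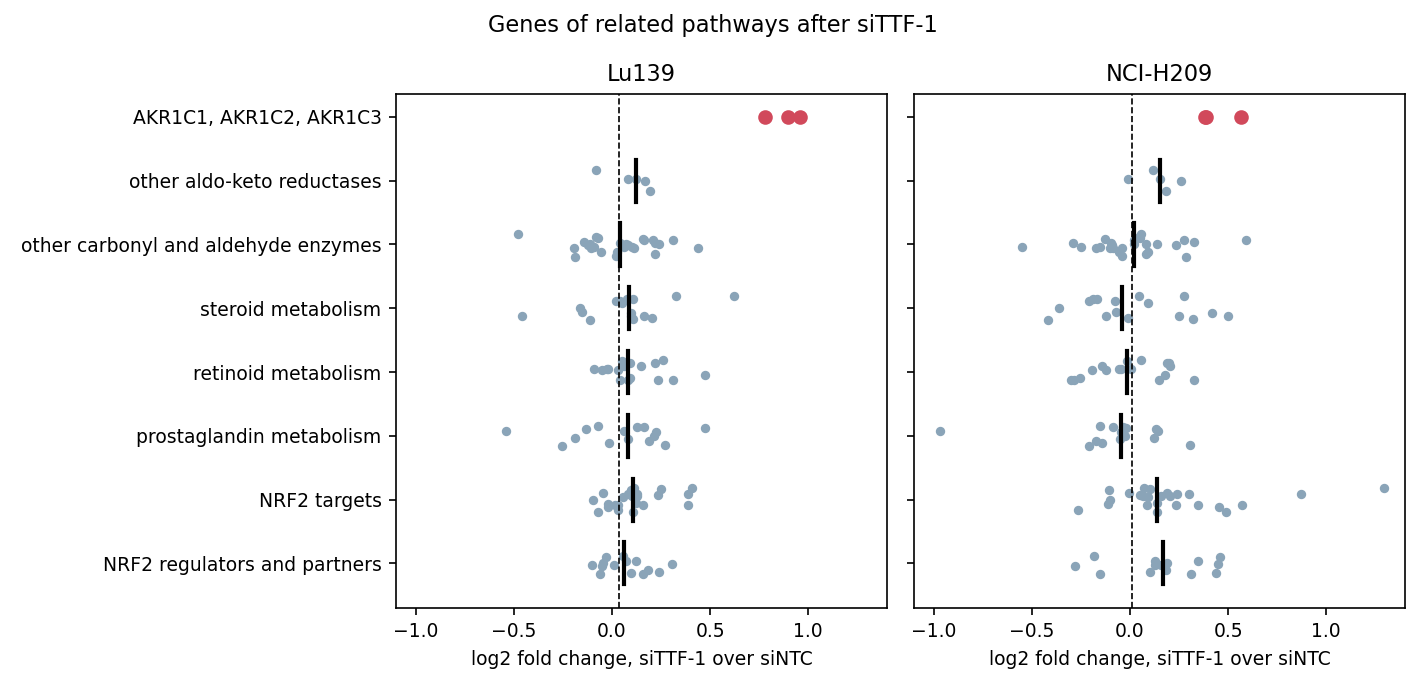
Log2 fold change of siTTF-1 over siNTC in Lu139 (left) and NCI-H209 (right) for the AKR1C genes and 7 lists of related genes; each point is a tested gene, black bars are list medians and the dashed line is the median of all genes tested. List medians run from 0.04 to 0.12 in Lu139 and from -0.05 to 0.17 in NCI-H209, and AKR1C1, AKR1C2 and AKR1C3 lie at 0.78 to 0.96 in Lu139 and 0.38 to 0.56 in NCI-H209.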

How the data were processed

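Biotin-labelled RNA was read on 4 Affymetrix arrays, per the labels. The deposited table holds linear intensities, 1 per probe set and array, from 3.03 to 26148. The submitters' processing notes name Affymetrix Expression Console, and its version, summarisation and normalization are not given in the sources consulted. Intensities give no read depth, and the number of arrays limits the precision.

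Of 54675 probe sets, 62 controls were left out, the platform's annotation paired 41097 with 1 gene symbol, 1801 with several and 11721 with none. RefSeq (GRCh38.p14) gave current symbols for 41043 by gene ID. Each gene was read from its brightest probe set by mean log2 value. Values were taken as log2(intensity + 18.7), the 25th percentile being the pseudocount, and the expression limit was the 40th percentile of mean log2 values, applied per line. Each line has 1 array per siRNA, so line differences were given by size. Genes outside the family were tested with limma 3.58.1 (R 4.3.3) on 14547 genes above the limit over all 4 arrays, with terms for line and siRNA, 1 residual and 5.91 prior degrees of freedom and two-sided Benjamini-Hochberg adjusted p. The p-values cover only how these arrays vary, part of which can be technical. The procedure was tested on simulated data. Promoter windows were aligned with Biopython 1.88, and figures drawn with matplotlib 3.10.9.

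The members, lists and thresholds were chosen with earlier results of these data known. The genes named from each list were the 3 highest and 3 lowest by mean log2 fold change among those tested, all other aldo-keto reductases tested, and NFE2L2 and KEAP1. The genes nearest in pattern were the 5 at the smallest distance. Alternatives were another pseudocount, scaling, expression limit, fold, line term or rule for several probe sets.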

Additional observations from a re-analysis of the deposited data

Results flagged for a closer look

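In 11 genes among the members, the genes named from the lists and the chromosome neighbours, the log2 fold change of siTTF-1 over siNTC had opposite signs in the lines, 1 array per group each, and whether the lines differ was not tested. Of all 14547 genes tested, 5429 were higher and 3909 lower in both lines, so opposite signs were common. Nothing is therefore read from the count of 11. AKR1B10, near background, had -0.12 in Lu139 and 0.0035 in NCI-H209. Among other aldo-keto reductases, AKR7A3 had 0.080 in Lu139 and -0.012 in NCI-H209, and KCNAB1 had -0.083 and 0.116. For ADH4 it was -0.48 in Lu139 and 0.058 in NCI-H209, and for PTGDS 0.47 and -0.021. Among the neighbours, NET1 had -0.090 in Lu139 and 0.021 in NCI-H209, and TUBAL3, below the expression limit, had -0.011 and 0.113. RARB had 0.080 in Lu139 and -0.30 in NCI-H209, and RDH10 had 0.090 and -0.25. ABCC1 had 0.031 in Lu139 and -0.26 in NCI-H209, and NFE2L3 had 0.056 and -0.18.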

How the results depend on the processing

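No fold change of AKR1C1, AKR1C2 or AKR1C3 and no difference of an AKR1C gene between the lines reversed under the alternatives run. Of 96 alternative values of the members' fold changes, 95 moved by less than the SD over the 2 lines. The exception was AKR1C1 in Lu139 at 0.53 as the mean of its probe sets, the one shared with AKR1C2 included. That SD is a wide yardstick, at 0.36 for AKR1C1 and 0.41 for AKR1C2, whose log2 fold changes in NCI-H209 were 0.39 and 0.38. AKR1C2 in Lu139, at 0.74 as the mean of its probe sets against 0.96, counted among the 95. Some of the 95 could not move. Another expression limit leaves a gene's fold change as it is, and averaging probe sets cannot change AKR1C3 or AKR1B10, read by 1 probe set each. The count of AKR probe sets at least 1.5-fold higher in NCI-H209 was 2 with a halved pseudocount, 2 with quantile normalization over the 4 arrays, 4 with centred arrays and 7 at the lower fold tried, against 1. In Lu139 it was 1 at 2-fold, against 5. The Lu139 minus NCI-H209 log2 difference depended on the scaling. With quantile normalization over the 4 arrays it was -2.86 for AKR1C1 with siTTF-1, and -3.27 and -3.55 for AKR1C3 with siTTF-1 and siNTC. With centred arrays it was -2.85 and -3.36 for AKR1C1 and -3.38 and -3.59 for AKR1C3 with siTTF-1 and siNTC. With probe sets averaged per gene, the one shared by AKR1C1 and AKR1C2 entering both, it was -1.92 and -1.97 for AKR1C1 and -2.58 and -2.80 for AKR1C2. Over all genes, limma at an adjusted p under 0.05 called 17 higher and 49 lower with quantile normalization over the 4 arrays, 8 and 33 with it within each line, and 6 and 32 with an expression limit at the 60th percentile, where fewer genes were tested, against 0 and 0. Genes at least 1.5-fold higher in Lu139 numbered 41 with a halved pseudocount, 48 with quantile normalization over the 4 arrays, 48 with centred arrays and 14 with probe sets averaged, against 27. So averaged, 53 were lower in Lu139, against 131, and in NCI-H209 83 were higher and 320 lower, against 159 and 515. The cause of these shifts was not tested. Restricting genes to probe sets with 1 symbol was already part of the main setting and was not run again. The line term sets siTTF-1 against siNTC within each line, and without that term limma also called 0 higher and 0 lower. Signal over background limits AKR1B10 and the dim AKR1C probe sets, and leaving out a line leaves 1 array per siRNA, with no test.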
